A study of Mus musculus with 12 samples.

Results

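The measurements described here are the 6 wild-type arrays of a series of 12, all of bone marrow cells sorted as Lineage-negative, Kit-positive and CD45.2-positive, a fraction of marrow rich in blood stem cells and progenitors. The arrays were chosen by their labels alone, as the wild-type controls of experiment 2 (WT experiment 2, 3 arrays) and of experiment 1 (WT experiment 1, 3 arrays). The other 6 arrays hold cells that lack both Bak and Bax (Bak/Bax DKO, 3 arrays, on the beadchip of WT experiment 2) or caspase-9 (Casp9 KO, 3 arrays, on the beadchip of WT experiment 1). All groups have the strain label C57BL/6, and all cells came from femur and tibia of bone marrow chimeras, collected 12 to 16 weeks after transplantation of fetal liver cells of embryonic day 13.5. Up to 250 ng of RNA from each sample was amplified for the Illumina Mouse WG6V2 beadchip, an array on which each probe sits on many beads. The marrow was thus regenerated from grafted cells, and the strain and treatment of the hosts are not given in the labels. The samples are called independent, but the labels do not tie them to separate animals, and p-values measure only the spread between these samples.

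Kit is the receptor for stem cell factor and marks early blood progenitors, while the lineage antibodies remove cells that carry the surface proteins of mature blood cells. The Lineage-negative Kit-positive fraction of mouse marrow is a mixture. A small part of it consists of stem and multipotent cells, which carry Sca-1 (the product of Ly6a), and most of it consists of progenitors already directed to granulocytes and monocytes, to erythroid cells and megakaryocytes, or to mast cells and basophils. Granule proteins such as Mpo and Elane are made early in granulocyte development, and haem enzymes and globins in the erythroid branch. Interferon-stimulated genes have a basal level in unchallenged cells. In such a sorted mixture, fewer cells of a type and less RNA per cell cannot be told apart.

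Each array gave 1 log2 intensity for each of 45281 probes. Mean bead intensity before normalization was 321 to 460 in WT experiment 2 and 415 to 426 in WT experiment 1, and 37.7% to 38.8% of the probes were above background in WT experiment 2, against 36.3% to 37.1% in WT experiment 1. Across the 10865 detected genes defined below, Pearson correlations were 0.989 to 0.994 between arrays of the same experiment and 0.972 to 0.979 between arrays of different experiments. The first principal component of the 6 arrays separated the experiments and held 64.0% of the variance. Among all 12 arrays, Bak/Bax DKO replicate 2 had the fewest probes above background, at 35.7%. The median SD of a gene over the 3 arrays was 0.163 log2 units in WT experiment 2 and 0.124 in WT experiment 1. A gene counted as detected where 1 probe had a detection score above 0.95 on at least 3 of the 6 arrays, and was represented by its brightest such probe, which gave 10865 genes. Of the genes detected on at least 2 arrays of an experiment, 10076 were shared, 715 were found in WT experiment 2 alone and 443 in WT experiment 1 alone. Each gene was ranked within each array and its rank given as a percentile of the 10865 genes, with the brightest near 100. Because probes bind with different strength, a percentile sets a gene among bright or dim probes and a comparison is made for the same probe between arrays, never as an amount of one gene against another.

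The label of the sort was checked first. Kit lay at log2 levels of 12.35, 11.89 and 12.05 in WT experiment 2, against 12.12, 12.10 and 12.01 in WT experiment 1, with mean percentiles of 95.2 in WT experiment 2 and 95.2 in WT experiment 1 (probe on chromosome 5, positions 76052279 to 76052328, the genome build of the positions was not stated in the sources used here). The difference of 0.02 ± 0.14 log2 units did not pass the test (here and below, ± gives the SE of a difference with 3 arrays a group). Ptprc, which encodes CD45, was detected on all 6 arrays but by a dim probe, at 5.86, 4.98 and 5.39 in WT experiment 2, against 6.06, 5.91 and 5.85 in WT experiment 1. WT experiment 2 replicate 1 lay inside the range of WT experiment 1, and the difference did not pass the test (-0.53 ± 0.20, adjusted p = 0.0755). None of the 5 markers of mature T and NK cells with a probe (Cd3e, Cd3d, Cd4, Cd8a and Ncr1) counted as detected. Pax5 of B cells, C1qa of macrophages, Itgam of mature myeloid cells, Cdh5 of endothelium and Col1a1 of stroma did not either, while the macrophage genes Adgre1 and Cd68 did. Other markers of these cell types were detected, at 4 of 6 for B cells and 4 of 5 with a probe for mature neutrophils. For macrophages 3 of 4 were detected, and for endothelium and stroma 2 of 4.

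**Figure D1:**
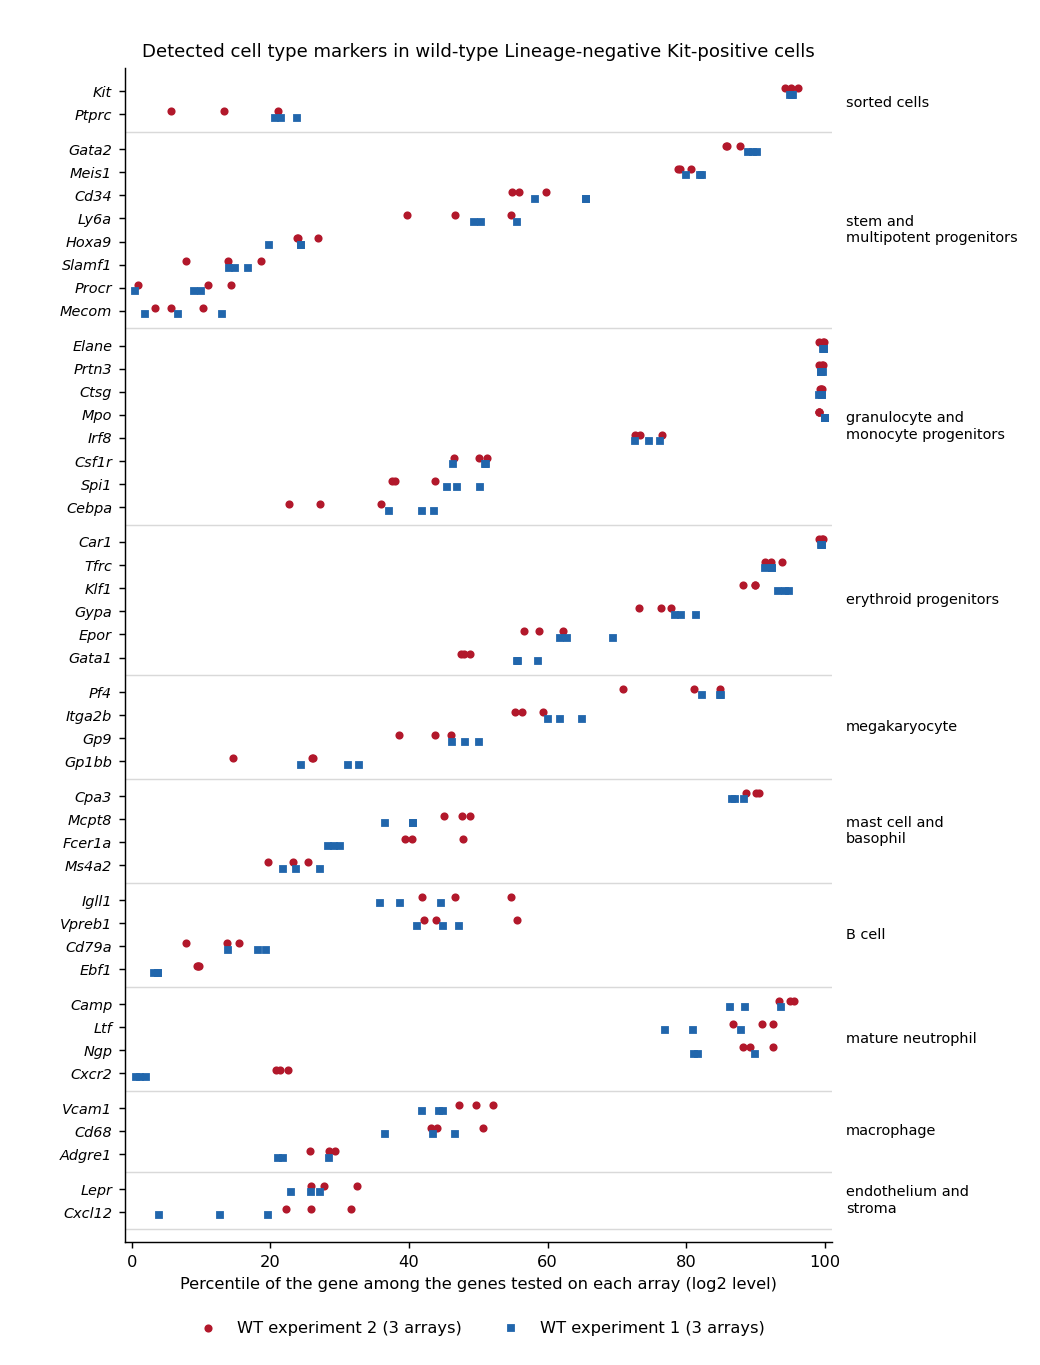
Percentile of the detected cell type markers reported here among the 10865 genes on each array (horizontal axis), with 3 red circles for WT experiment 2 above 3 blue squares for WT experiment 1 in each row. Kit, the granule protein genes Elane, Prtn3, Ctsg and Mpo and erythroid Car1 lie at percentiles of 94.3 or more on all 6 arrays. Procr and Mecom lie at 14.4 or less.

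Granulocyte and monocyte progenitor genes were among the brightest of all. All 8 markers were detected, and 8 of the 18 detected genes of the wider list were at or above percentile 90 on all 6 arrays. Mpo, the myeloperoxidase of primary granules, read 13.52, 13.54 and 13.56 in WT experiment 2, against 13.90, 13.87 and 13.90 in WT experiment 1. Elane, neutrophil elastase, read 13.54, 13.85 and 13.71 in WT experiment 2, against 13.73, 13.78 and 13.73 in WT experiment 1, and its percentiles averaged 99.6 in WT experiment 2 and 99.8 in WT experiment 1. Prtn3 and Ctsg, the other serine proteases of these granules, averaged percentiles of 99.4 or more in both experiments. The transcription factors of this branch were ranked lower: Irf8, which directs monocytes, averaged percentiles of 74.1 in WT experiment 2 and 74.5 in WT experiment 1, Spi1 (PU.1) 39.7 in WT experiment 2 and 47.5 in WT experiment 1, and Cebpa, which starts granulocyte commitment, 28.6 in WT experiment 2 and 40.9 in WT experiment 1. Csf1r, the receptor for macrophage colony-stimulating factor, lay in the middle of the range at 49.2 in WT experiment 2 and 49.5 in WT experiment 1.

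Granule genes that appear later in neutrophil development were bright too, although the lineage sort removes mature granulocytes. S100a8 and S100a9, which encode the calprotectin subunits, averaged percentiles of 99.2 in WT experiment 2 and 98.5 in WT experiment 1 and of 97.3 in WT experiment 2 and 95.3 in WT experiment 1. Camp, the cathelicidin gene of secondary granules, read 11.72, 12.16 and 12.03 in WT experiment 2, against 11.05, 10.82 and 11.75 in WT experiment 1. Ltf (lactoferrin) and Ngp, of the same granules, lay at mean percentiles of 89.99 in WT experiment 2 and 81.9 in WT experiment 1 and of 89.9 in WT experiment 2 and 84.3 in WT experiment 1. Of the mature neutrophil markers, Ly6g has no probe and Itgam was at background on all 6 arrays. Among monocyte, macrophage and dendritic cell genes, 18 of 27 were detected and the list's median percentile was 44.4 in WT experiment 2 and 33.5 in WT experiment 1; C1qa, C1qb, C1qc, Mertk, Itgax and Mrc1 were at background on all 6 arrays.

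Erythroid genes were also bright. Of 40 genes 35 were detected, 15 of them at or above percentile 90 on all 6 arrays. Car1, carbonic anhydrase 1 of early erythroid progenitors, read 13.67, 13.75 and 13.55 in WT experiment 2, against 13.60, 13.67 and 13.67 in WT experiment 1. Klf1, the erythroid Kruppel-like factor, averaged percentiles of 89.4 in WT experiment 2 and 94.1 in WT experiment 1 and its partner Gata1 48.1 in WT experiment 2 and 56.6 in WT experiment 1. The haem enzyme gene Urod (97.5 in WT experiment 2 and 97.4 in WT experiment 1) and the transferrin receptor Tfrc (92.4 in WT experiment 2 and 92.02 in WT experiment 1) were bright, while Alas2, the erythroid enzyme that starts haem synthesis, was dim at 28.1 in WT experiment 2 and 17.1 in WT experiment 1. Epor, the erythropoietin receptor, averaged 59.1 in WT experiment 2 and 64.7 in WT experiment 1. The megakaryocyte genes had lower ranks: none of 17 detected genes reached percentile 75 on all 6 arrays, Pf4 (platelet factor 4) lay at 78.9 in WT experiment 2 and 84.02 in WT experiment 1, and Itga2b, the alpha chain of the platelet fibrinogen receptor, at 56.9 in WT experiment 2 and 62.3 in WT experiment 1. Vwf and Gp1bb were detected at 37.4 in WT experiment 2 and 43.9 in WT experiment 1 and at 22.3 in WT experiment 2 and 29.5 in WT experiment 1.

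Genes of mast cells, basophils and eosinophils included bright members, though 12 of 22 were detected. Cpa3, mast cell carboxypeptidase, read 11.30, 11.25 and 11.08 in WT experiment 2, against 11.03, 10.90 and 10.83 in WT experiment 1, and Prg2, the eosinophil major basic protein, and Hdc, which makes histamine, averaged 98.4 in WT experiment 2 and 98.01 in WT experiment 1 and 93.1 in WT experiment 2 and 93.6 in WT experiment 1. Fcer1a and Ms4a2, chains of the IgE receptor, and Mcpt8, a basophil protease, were detected on all 6 arrays at middle to low percentiles. The mast cell proteases Mcpt4, Cma1, Tpsb2 and Tpsab1 were at background on all 6.

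Stem cell genes spread over the whole range. Lmo2, a bridging factor of the stem cell transcription complex, was the brightest at 98.3 in WT experiment 2 and 98.1 in WT experiment 1, followed by Kit, Cd27, Gata2 (86.4 in WT experiment 2 and 89.6 in WT experiment 1), Gfi1b, Tal1, Lyl1 and Meis1 (79.5 in WT experiment 2 and 81.4 in WT experiment 1). Ly6a (Sca-1) read 7.33, 8.42 and 7.84 in WT experiment 2, against 8.02, 8.11 and 8.48 in WT experiment 1 and lay near the middle. Cd34 averaged percentiles of 56.8 in WT experiment 2 and 63.1 in WT experiment 1. Genes used to mark the long-term stem cell were close to background. Slamf1 (CD150) read 5.69, 5.09 and 5.43 in WT experiment 2, against 5.57, 5.47 and 5.43 in WT experiment 1. Procr (EPCR) passed the detection limit on 2 arrays of each experiment, as did Mecom, while Hlf and Fgd5 passed it on none of the 6. Of the other stem and multipotent progenitor genes, Flt3, Erg and Hoxa10 also passed the detection limit on none of the 6.

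Lymphoid and stromal signals were low with a few exceptions. Of 25 B lymphoid genes 14 were detected, with a median percentile of 19.8 in WT experiment 2 and 20.04 in WT experiment 1, yet Ighm, the heavy chain of IgM, averaged 86.6 in WT experiment 2 and 87.4 in WT experiment 1. The surrogate light chain genes Vpreb1 and Igll1 of early B progenitors lay at 47.2 in WT experiment 2 and 44.4 in WT experiment 1 and at 47.7 in WT experiment 2 and 39.7 in WT experiment 1, and Dntt, the terminal transferase of lymphoid progenitors, at 44.1 in WT experiment 2 and 43.9 in WT experiment 1. Of 22 T and NK genes 6 were detected, the highest being Prf1 (perforin). Cxcl12, the niche chemokine, and Lepr were detected at low percentiles, while Cdh5 and Col1a1, the defining genes of endothelium and fibroblasts, were not.

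Of 52 receptor genes, 39 were detected. After Kit, the brightest probes were those of Il11ra1, the interleukin 11 receptor chain, at 87.03 in WT experiment 2 and 85.8 in WT experiment 1, and of the interferon gamma receptor chain Ifngr1, at 87.3 in WT experiment 2 and 84.8 in WT experiment 1. Cxcr4, the receptor for Cxcl12, averaged 73.9 in WT experiment 2 and 80.6 in WT experiment 1, the granulocyte receptor Csf3r 54.4 in WT experiment 2 and 63.8 in WT experiment 1, and the alpha chains for interleukin 3 (Il3ra) and granulocyte-macrophage colony-stimulating factor (Csf2ra) 48.1 in WT experiment 2 and 53.4 in WT experiment 1 and 67.2 in WT experiment 2 and 69.3 in WT experiment 1. Receptors at background on all 6 arrays included Flt3, Lifr, Il4ra and Il13ra1. Ifnar1 was also not detected, but its partner chain Ifnar2 was, at 8.51, 8.41 and 8.27 in WT experiment 2, against 8.20, 7.80 and 7.82 in WT experiment 1.

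Interferon-stimulated genes were widely detected without any added interferon in the labels. Of 83 genes 65 were detected, 14 of them at or above percentile 75 on all 6 arrays, and the list's median percentile was 51.7 in WT experiment 2 and 52.8 in WT experiment 1. The brightest probes were those of B2m and H2-K1, which encode chains of class I antigen-presenting molecules, at 98.9 in WT experiment 2 and 99.3 in WT experiment 1 and at 97.8 in WT experiment 2 and 98.5 in WT experiment 1, of the surface protein gene Ly6e, at 97.8 in WT experiment 2 and 98.2 in WT experiment 1, of the class I gene H2-D1 and of the immunity-related GTPase Irgm1, at 97.7 in WT experiment 2 and 97.4 in WT experiment 1. The immunoproteasome subunit Psmb8 averaged 96.3 in WT experiment 2 and 96.3 in WT experiment 1 and Ifi27 88.2 in WT experiment 2 and 92.99 in WT experiment 1. Antiviral effectors were dimmer: Oas1g averaged 45.8 in WT experiment 2 and 58.7 in WT experiment 1, Isg15 33.9 in WT experiment 2 and 41.5 in WT experiment 1, Rsad2 (viperin) 38.7 in WT experiment 2 and 29.8 in WT experiment 1 and Ifit3 8.8 in WT experiment 2 and 10.4 in WT experiment 1. Ifit1, Mx1, Mx2, Cxcl10 and Oas1a did not count as detected, nor did the interferon genes Ifnb1, Ifng, Ifna2 and Ifna4. Of the signalling chain, Jak2 averaged 72.7 in WT experiment 2 and 71.3 in WT experiment 1, Tyk2 69.3 in WT experiment 2 and 72.9 in WT experiment 1, Jak1 35.04 in WT experiment 2 and 31.6 in WT experiment 1 and Stat2 30.3 in WT experiment 2 and 30.6 in WT experiment 1.

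Proliferation genes were high. Of 40 cell cycle genes 37 were detected, 24 of them at or above percentile 75 on all 6 arrays, with a median percentile of 85.8 in WT experiment 2 and 87.2 in WT experiment 1. The replication licensing gene Mcm5 averaged 97.7 in WT experiment 2 and 97.7 in WT experiment 1, Mki67 86.6 in WT experiment 2 and 88.02 in WT experiment 1 and Cdk6, the cyclin-dependent kinase of early progenitors, 95.2 in WT experiment 2 and 91.9 in WT experiment 1. The 10 brightest genes of all were Rplp1, Rps2, Rps9, Rps29 and the pseudogene Rpl27-ps1 of the ribosome, Gm5560 and Gm9294, the elongation factor Eef1a1, the tubulin Tuba1b and the glutathione peroxidase Gpx1, each with a mean log2 level between 13.83 and 14.07, where the scale is close to its ceiling.

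Gene order was nearly the same in the experiments. Spearman correlations of gene ranks were 0.988 to 0.992 between arrays of the same experiment and 0.968 to 0.975 between arrays of different experiments, and 0.976 between the experiments' mean percentiles. These are correlations across genes, which are not independent replicates. The mean percentile differed by under 5 points for 7518 genes (69.2%), and 81 of the 100 brightest genes were shared. Shifts of at least 20 points were uneven, with 134 genes higher and 6 lower in WT experiment 2.

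Within each experiment, the widest spread was in sex-linked genes. Xist, the RNA made from the inactive X chromosome, read 4.499, 4.45 and 9.998 in WT experiment 2, against 10.99, 10.17 and 4.30 in WT experiment 1. It was therefore high on WT experiment 2 replicate 3 and on WT experiment 1 replicates 1 and 2, and at background on the other 3 arrays. The Y-linked Eif2s3y read 9.74, 9.93 and 4.38 in WT experiment 2, against 4.58, 4.36 and 9.52 in WT experiment 1, and Kdm5d read 6.54, 6.68 and 4.42 in WT experiment 2, against 4.44, 4.55 and 6.93 in WT experiment 1. Both were high on exactly the 3 arrays on which Xist was at background. Ddx3y followed the same division but was above background on all 6 arrays, at 10.51, 10.33 and 7.29 in WT experiment 2, against 6.68, 6.17 and 9.01 in WT experiment 1. The groups thus differ in sex-linked expression, with 1 Xist-high array of 3 in WT experiment 2 and 2 of 3 in WT experiment 1, and none of the 5 sex-linked genes passed the test between them. The part of this imbalance in the differences below was not tested beyond a fit with the Xist level as a covariate, which called 2090 genes.

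Antibody gene probes were also among the 10 most variable. IGK-V5, named for a kappa variable segment, read 7.16, 6.85 and 6.14 in WT experiment 2, against 4.56, 7.87 and 7.64 in WT experiment 1, and LOC381774, which the files also annotate as antibody parts, read 6.95, 6.44 and 6.02 in WT experiment 2, against 4.42, 7.74 and 7.46 in WT experiment 1. Both were at background on WT experiment 1 replicate 1 alone. The lambda chain probe Igl read 7.71, 8.51 and 5.81 in WT experiment 2, against 8.70, 7.37 and 8.49 in WT experiment 1, lowest on WT experiment 2 replicate 3. DQ341294, a probe on chromosome 6, was likewise lowest there, at 7.09, 7.49 and 4.87 in WT experiment 2, against 5.87, 6.84 and 8.50 in WT experiment 1. Their pooled SDs within the experiments were 1.36, 1.34, 1.11 and 1.37 log2 units, against medians over all genes of 0.163 and 0.124. Probes of antibody genes can bind transcripts of related segments.

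**Figure D2:**
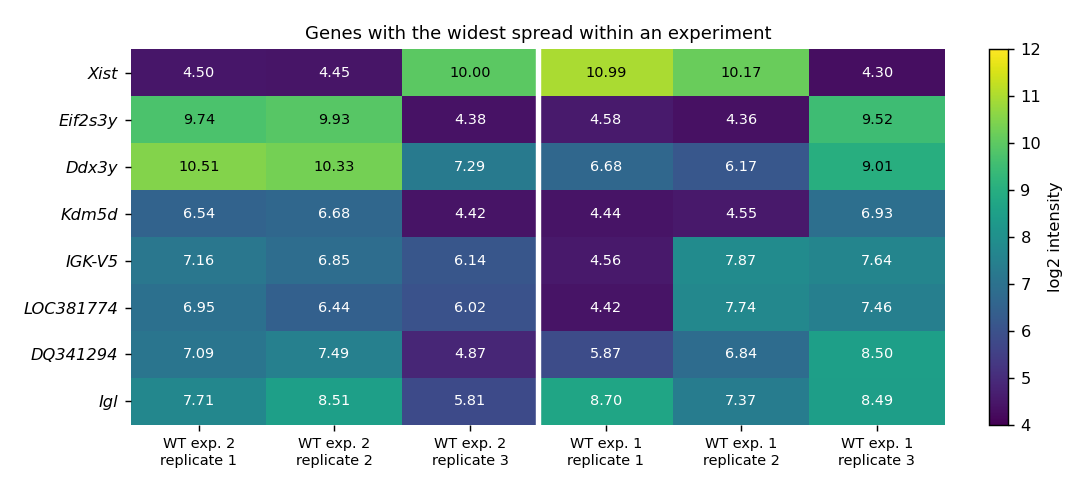
Log2 intensity (colour and printed value) of 4 sex-linked genes and 4 other highly variable probes, 3 of them annotated as antibody parts, on each wild-type array, with WT experiment 2 in the left 3 columns and WT experiment 1 in the right 3. Xist and the Y-linked Eif2s3y and Kdm5d are high on opposite arrays, and IGK-V5 and LOC381774 are near 4.5 on WT experiment 1 replicate 1 only.

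The second question was how far wild-type cells of the same description differed between the experiments. WT experiment 2 minus WT experiment 1 was fitted with limma to the 6 arrays with Benjamini-Hochberg adjustment of the p-values across all 10865 genes. A gene was called where its adjusted p was below 0.05. Each experiment lies on a beadchip of its own, so experiment, beadchip and sample set cannot be told apart, and no value within a beadchip exists for this comparison. The fit called 2710 genes (24.9%), of which 1386 (12.8%) were higher and 1324 (12.2%) lower in WT experiment 2, 4138 genes (38.1%) had an unadjusted p under 0.05, and 4555 genes (41.9%) had arrays that did not overlap between the groups. The median difference over all genes was -0.02 log2 units. Large differences ran mostly one way: 297 called genes (2.73%) were higher by at least 1 log2 unit and 46 (0.423%) lower. The count of calls depends on single arrays, at 1709 without WT experiment 1 replicate 3 and 1762 without WT experiment 1 replicate 2, and fell to 856 when all 12 arrays shared 1 estimate of the spread and to 1509 when arrays were centred on their medians in place of quantile normalization.

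**Figure D3:**
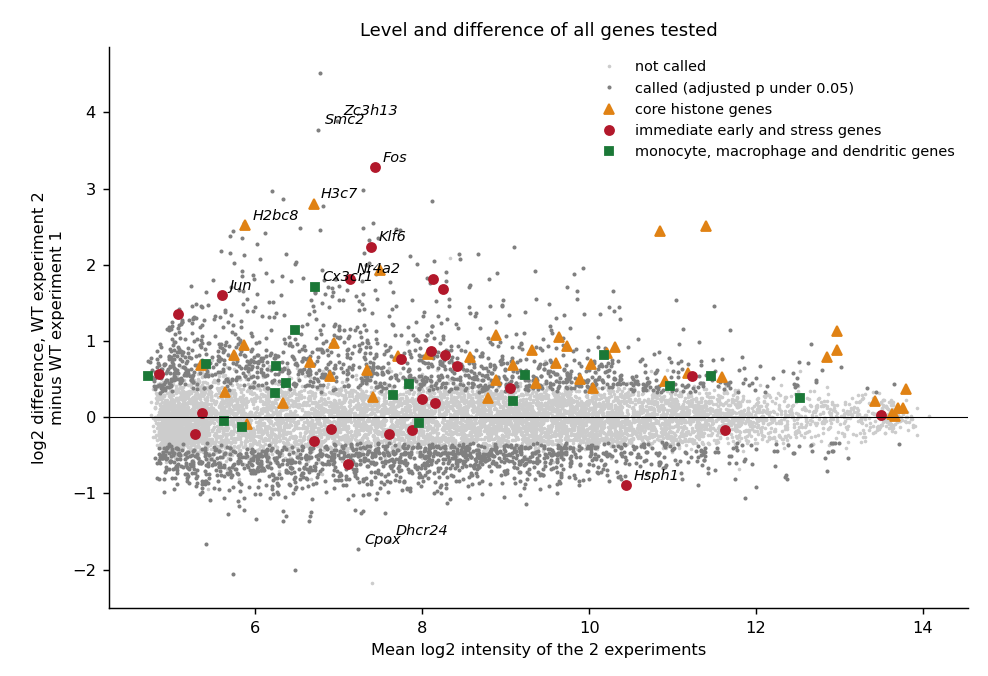
Mean log2 intensity of the 2 experiments (horizontal axis) and log2 difference of WT experiment 2 minus WT experiment 1 (vertical axis) for the 10865 genes, with called genes in the darker grey. Immediate early and stress genes (red circles), core histone genes (orange triangles) and monocyte, macrophage and dendritic genes (green squares) lie mostly above 0, and few genes fall below -1.

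Among genes with no overlap between the groups, the 10 largest higher values began with AK044933, Zc3h13 and Smc2. Zc3h13, a component of the RNA methylation machinery, above background on 2 of 3 WT experiment 1 arrays, read 9.002, 9.08 and 8.66 in WT experiment 2, against 5.04, 4.97 and 5.07 in WT experiment 1, a difference of 3.89 ± 0.13, adjusted p = 1.24e-06. Smc2, a condensin subunit, above background on 1 of 3 WT experiment 1 arrays, read 8.62, 8.92 and 8.35 in WT experiment 2, against 4.92, 4.59 and 5.07 in WT experiment 1 (3.77 ± 0.17, adjusted p = 4.3e-06). The transcript AK044933 was at least 16.7-fold higher, since no WT experiment 1 array was above background (adjusted p = 4.03e-06). Cep295, also at background on all WT experiment 1 arrays, was at least 6.58-fold higher (adjusted p = 2.38e-05). Fos, Resf1, BC037144, Pcyt1a, H3c7 and Csnk2a1 were higher by 2.77 to 3.28 log2 units. Other probes of the same genes did not always follow: the other Smc2 probes differed by 3.11 and -0.01, and the second Cep295 probe by 0.29, while the second Resf1 probe differed by 1.71. Without WT experiment 2 replicate 1, 2 or 3, the first Cep295 probe no longer met the detection rule of at least 3 arrays. The second probe took its place and was not called, with adjusted p up to 0.314. Those fits therefore do not test the first probe.

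The 10 largest lower values were smaller. Cpox, coproporphyrinogen oxidase, read 5.99, 6.43 and 6.66 in WT experiment 2, against 8.14, 7.85 and 8.28 in WT experiment 1, a difference of -1.73 ± 0.18, adjusted p = 0.000244. Its other detected probe ran the opposite way, by 0.50, so the direction of this gene depends on the probe. Others were Asb16, Pgap4, Gm15429, the DNA glycosylase gene Ogg1, AK159040 (at least 2.56-fold lower, with no WT experiment 2 array above background; adjusted p = 5.24e-05), LOC384836 and LOC213684 and LOC100046793, both on chromosome 6. LOC213684 read 4.43, 5.14 and 4.53 in WT experiment 2, against 7.44, 6.13 and 6.72 in WT experiment 1, but was above background on 1 of 3 WT experiment 2 arrays, and LOC100046793 on 2 of 3, so the sizes of their differences are set against values at background. Over all called genes with several detected probes, the probes shared 1 sign in 705 of 1024 (68.8%), and in 91 of 126 (72.2%) where the difference was at least 1 log2 unit.

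Immediate early genes are transcribed within minutes of a stimulus, and they were listed together with heat shock and other stress response genes. The list was called higher in a larger share than all genes. Like the other lists, it was chosen with earlier results of these data known, so its share carries no test of its own. Of its 37 genes 26 were detected, 13 of them (50.0%) higher and 1 lower, against 12.8% and 12.2% of all genes, and the median difference was 0.46 log2 units against -0.02. Ier2 and Trib3 passed the detection rule through WT experiment 2 alone, so their place among the higher genes follows in part from that rule. Fos, a subunit of the AP-1 factor, read 9.07, 9.44 and 8.71 in WT experiment 2, against 5.67, 6.13 and 5.58 in WT experiment 1. The groups were separated by over 2 log2 units, with a difference of 3.28 ± 0.20, adjusted p = 1.95e-05. Klf6, a Kruppel-like factor, read 8.67, 8.71 and 8.13 in WT experiment 2, against 6.24, 6.32 and 6.25 in WT experiment 1 (2.24 ± 0.16, adjusted p = 3.62e-05). Nr4a2, an orphan nuclear receptor, read 7.95, 8.26 and 7.91 in WT experiment 2, against 6.65, 6.23 and 5.79 in WT experiment 1 (1.82 ± 0.20, adjusted p = 0.000345), though its other detected probe differed by 0.07. Dusp1, the phosphatase that switches off MAP kinases, read 9.19, 9.11 and 8.81 in WT experiment 2, against 7.42, 7.10 and 7.17 in WT experiment 1 (1.81 ± 0.14, adjusted p = 5.42e-05). For each of these 4 genes all arrays of WT experiment 2 were above all arrays of WT experiment 1.

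The promoters of these 4 genes are shown because they had the largest differences among the higher genes of the list with a promoter entry. The sequences are the 250 bases before the annotated start in RefSeq (GRCm38.p6), 5′ to 3′ on the gene's strand, with capitals for each match to TGACG, the core of the cyclic AMP response element, or to its reverse complement CGTCA.
Fos, chr12:85473640-85473889, plus strand, 2 matches: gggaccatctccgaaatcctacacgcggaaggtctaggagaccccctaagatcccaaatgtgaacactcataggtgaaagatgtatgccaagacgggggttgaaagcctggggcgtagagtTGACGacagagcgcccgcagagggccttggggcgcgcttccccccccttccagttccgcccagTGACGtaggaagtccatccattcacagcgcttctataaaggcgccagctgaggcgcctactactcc
Klf6, chr13:5861239-5861488, plus strand, no match: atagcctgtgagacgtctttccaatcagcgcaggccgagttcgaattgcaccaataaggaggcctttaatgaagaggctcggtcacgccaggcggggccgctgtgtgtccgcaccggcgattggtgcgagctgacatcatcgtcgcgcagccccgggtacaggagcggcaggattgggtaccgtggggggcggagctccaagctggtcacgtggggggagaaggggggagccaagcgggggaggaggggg
Nr4a2, chr2:57124004-57124253, minus strand, 4 matches: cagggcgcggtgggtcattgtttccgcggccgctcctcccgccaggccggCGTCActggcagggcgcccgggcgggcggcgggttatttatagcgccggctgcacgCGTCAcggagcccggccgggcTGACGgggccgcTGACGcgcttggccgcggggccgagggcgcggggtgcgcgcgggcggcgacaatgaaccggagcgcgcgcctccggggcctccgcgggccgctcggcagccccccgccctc
Dusp1, chr17:26508473-26508722, minus strand, 3 matches: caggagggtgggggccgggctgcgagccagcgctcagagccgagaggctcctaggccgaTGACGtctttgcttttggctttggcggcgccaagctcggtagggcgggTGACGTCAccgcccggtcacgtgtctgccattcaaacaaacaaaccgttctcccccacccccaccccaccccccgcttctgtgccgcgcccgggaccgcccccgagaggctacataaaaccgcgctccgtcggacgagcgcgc
In Dusp1, 2 of the matches overlap in the full element TGACGTCA. TGACG on either strand occurred in this window of 17.8% of 32851 promoters and of 4 of the 10 higher genes of this list with an entry; the full TGACGTCA occurred in 1.55% and in 1 of 10, and the serum response element's CArG box in 1.47% and in 1 of 10. A gene counted if any of its promoter entries matched, while the percentages are per promoter, so the shares are not measured alike. These matches are descriptions of the letters and not of binding.

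Among the other higher members, Egr1, a zinc finger factor, read 9.68, 9.26 and 8.32 in WT experiment 2, against 7.51, 7.54 and 7.15 in WT experiment 1 (1.69 ± 0.29, adjusted p = 0.00343), and Jun, the partner of Fos, above background on 1 of 3 WT experiment 1 arrays, read 6.78, 6.62 and 5.801 in WT experiment 2, against 4.98, 4.59 and 4.84 in WT experiment 1 (1.60 ± 0.23, adjusted p = 0.00149). Ier2 was above background on all WT experiment 2 arrays and on none of WT experiment 1, a change of at least 1.72-fold (adjusted p = 0.00406). Zfp36, which degrades cytokine mRNA, differed by 0.87 ± 0.12, adjusted p = 0.00125, Ier3 by 0.81 ± 0.16, Rgs1 by 0.77 ± 0.13, the stress response gene Gadd45g by 0.67 ± 0.16, and Dusp2 by 0.38 ± 0.12. Trib3, another stress response gene, at background on all WT experiment 1 arrays, was at least 1.11-fold higher (adjusted p = 0.00571). The group was not uniform: the heat shock gene Hsph1 was lower at 9.95, 9.99 and 10.06 in WT experiment 2, against 10.62, 10.89 and 11.17 in WT experiment 1 (-0.89 ± 0.15, adjusted p = 0.00262), and Junb, Jund, Myc and Hspa8 differed by -0.21 ± 0.16, 0.05 ± 0.16, -0.16 ± 0.12 and 0.03 ± 0.11 log2 units, none of which passed the test. The other detected probes of Hspa8 differed by -0.59, -0.39 and -0.01. The probe at -0.59 had adjusted p = 0.00578 in limma over all detected probes, so the result for Hspa8 depends on the probe. The count of higher genes was 10 to 12 with 1 wild-type array left out and 12 when Xist entered as a covariate. Ier2 and Trib3 dropped out of the detected genes whenever a WT experiment 2 array was left out. The count of lower genes was 3 without WT experiment 2 replicate 2. The higher count was 6 when all 12 arrays entered the fit and 12 when Bak/Bax DKO replicate 2, an array that stands apart from the other 11, was left out of that fit.

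**Figure D4:**
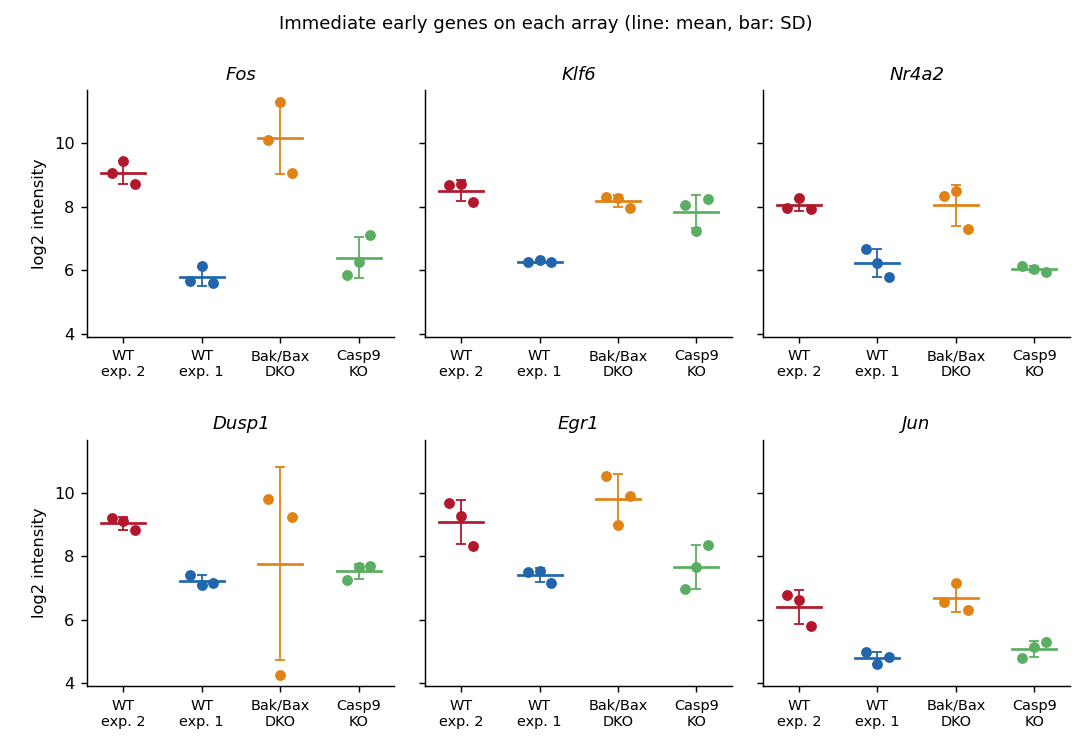
Log2 intensity of 6 immediate early genes on each array, in the order WT experiment 2, WT experiment 1, Bak/Bax DKO and Casp9 KO, with points for arrays, a line for the mean and a bar for the SD (n = 3). In all 6 genes the WT experiment 2 arrays lie above the WT experiment 1 arrays, and for Fos the Bak/Bax DKO arrays, at 9.05 to 11.31, lie above the Casp9 KO arrays, at 5.84 to 7.10.

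The same beadchips carried the knockout arrays, which share no array with the wild-type comparison but differ from each other in genotype as well as in beadchip. For Fos the levels were 10.11, 11.31 and 9.05 in Bak/Bax DKO, against 5.84, 6.24 and 7.10 in Casp9 KO. Nr4a2 read 8.34, 8.48 and 7.31 in Bak/Bax DKO, against 6.13, 6.05 and 5.95 in Casp9 KO, so here too the arrays did not overlap. Klf6 read 8.31, 8.29 and 7.97 in Bak/Bax DKO, against 8.04, 7.24 and 8.25 in Casp9 KO, with overlapping groups. Across the 2710 called genes, Bak/Bax DKO minus Casp9 KO had the sign of the wild-type difference in 82.4% without Bak/Bax DKO replicate 2 and in 79.6% with it, against 67.7% and 64.8% of all genes. Of the called genes with a difference of at least 1 log2 unit, 92.7% and 91.0% shared the sign. Among immediate early and stress genes 13 of 14 called genes did so (without Bak/Bax DKO replicate 2).

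Core histone genes were called higher in a larger share than all genes. The list was drawn up after their values had been seen, from all symbols of the replication-dependent H2A, H2B, H3 and H4 clusters, and therefore carries no test of its own. Of 49 genes 45 were detected, 28 of them (62.2%) higher and none lower, against 12.8% and 12.2% of all genes, with a median difference of 0.70 log2 units. H3c7, above background on 2 of 3 WT experiment 1 arrays, read 8.12, 8.24 and 7.94 in WT experiment 2, against 5.54, 5.62 and 4.73 in WT experiment 1, H2ac11 12.48, 12.58 and 12.88 in WT experiment 2, against 10.48, 10.16 and 9.79 in WT experiment 1 and H2ac21 11.99, 12.06 and 12.15 in WT experiment 2, against 9.78, 9.93 and 9.15 in WT experiment 1. H2bc8 was above background on all WT experiment 2 arrays and on none of WT experiment 1, at least 4.49-fold higher (adjusted p = 4.03e-06). H2bc8 thus passed the detection rule through WT experiment 2 alone. The brightest probe, that of H2ac10, was higher by 0.38 ± 0.11, adjusted p = 0.0299. The next brightest, H2ac7, H2ac18, H2ac6 and H2ac20, differed by 0.01 to 0.12 log2 units and were not called. Their other detected probes were dimmer and differed by -0.13 (H2ac6) to 2.40 (H2ac18). The other probes of H2ac7 and H2ac20 differed by 0.74 and 0.51, so the values of these genes depend on the probe. The transcripts of these genes carry no poly(A) tail in dividing cells, the members are near-identical in sequence, and a probe may bind several of them. The number called higher was 20 to 28 with 1 array left out, and 24 of the 28 had the same sign in Bak/Bax DKO minus Casp9 KO without replicate 2. Over all called genes the same-sign share was 82.4%. In the cell cycle list 3 of 37 genes were higher and 3 lower (8.11% each), against 12.8% and 12.2% of all genes, with a median of 0.01. The lower count was 1 without WT experiment 1 replicate 3. Ccnd2, cyclin D2, was higher at 10.66, 10.84 and 10.79 in WT experiment 2, against 8.85, 9.07 and 8.73 in WT experiment 1 (1.88 ± 0.13, adjusted p = 2.99e-05).

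**Figure D5:**
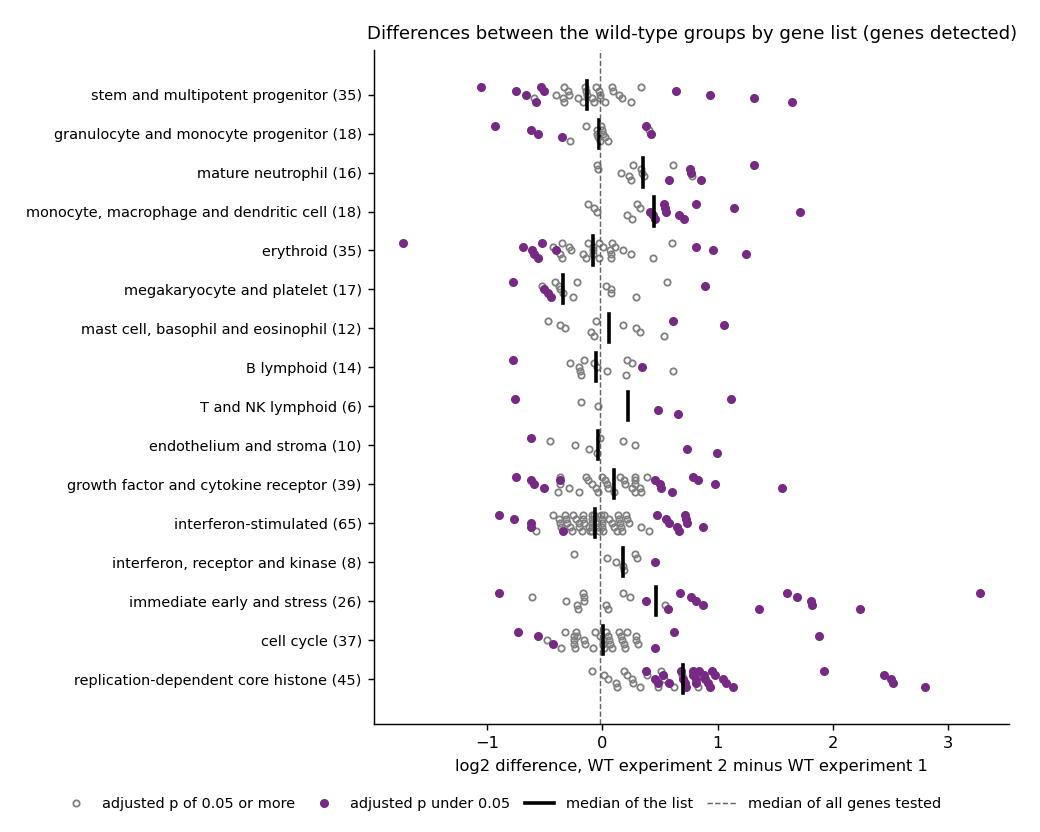
Log2 difference of WT experiment 2 minus WT experiment 1 for each detected gene of 16 lists (number of genes in brackets), with filled points for called genes, a black bar for the list's median and a dashed line for the median of all genes. The core histone, immediate early and stress, and monocyte lists have medians of 0.70, 0.46 and 0.45, and the megakaryocyte list has -0.34.

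Monocyte, macrophage and dendritic cell genes were higher in 11 of 18 detected genes (61.1%) and lower in none, against 12.8% and 12.2% of all genes, with a median difference of 0.45. Cx3cr1, the fractalkine receptor of monocytes, read 7.70, 7.596 and 7.43 in WT experiment 2, against 5.53, 6.20 and 5.85 in WT experiment 1 (1.71 ± 0.17, adjusted p = 0.000172). Ly86, the MD-1 partner of RP105, read 10.35, 10.84 and 10.55 in WT experiment 2, against 9.77, 9.73 and 9.80 in WT experiment 1 (0.81 ± 0.14, adjusted p = 0.00301), and Ccr2, the receptor that brings monocytes out of the marrow, differed by 0.70 ± 0.12, adjusted p = 0.0028. The class II genes H2-Aa and H2-Eb1 differed by 1.15 ± 0.25 and 0.67 ± 0.21, while Cd74 (invariant chain) and H2-Ab1 differed by -0.07 ± 0.19 and 0.22 ± 0.19 and were not called. Siglech passed the detection rule through WT experiment 2 alone, so its place among the higher genes follows in part from that rule. The macrophage genes C1qa, C1qb and C1qc were at background on all 6 arrays, while Adgre1 and Cd68 were detected. The count of 11 was 6 without WT experiment 1 replicate 2, WT experiment 2 replicate 2 or WT experiment 2 replicate 3, and 7 without WT experiment 1 replicate 1. In Bak/Bax DKO minus Casp9 KO, without Bak/Bax DKO replicate 2, 4 of the 11 had the same sign, against 82.4% of all called genes.

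Of 16 mature neutrophil genes 5 were higher (31.2%) and none lower, against 12.8% and 12.2% of all genes, with a median difference of 0.35. Cxcr2, the chemokine receptor of neutrophils, was above background on all arrays of WT experiment 2 and on none of WT experiment 1, at least 1.93-fold higher (adjusted p = 7.3e-05). Cxcr2 thus passed the detection rule through WT experiment 2 alone. Clec5a, a myeloid lectin, differed by 0.76 ± 0.14, adjusted p = 0.00497, while its other detected probes differed by 0.00, 0.21 and 0.30, none called. Camp and Ltf differed by 0.77 ± 0.22, adjusted p = 0.0341 and 0.85 ± 0.26, adjusted p = 0.0392, and WT experiment 1 replicate 3 was the highest of its group for both, overlapping WT experiment 2. The other Ltf probe, at 0.42, was not called. The calls of Camp, Ltf and S100a9 were each lost on leaving out 4 or 5 of the 6 arrays in turn, with adjusted p up to 0.127. The count of higher genes was 8 without WT experiment 1 replicate 3, 1 without WT experiment 2 replicate 2, and 2 without WT experiment 1 replicate 1 or 2 or WT experiment 2 replicate 3.

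Of 18 granulocyte and monocyte progenitor genes 2 were higher (11.1%) and 4 lower (22.2%), against 12.8% and 12.2% of all genes, with a median of -0.03. Cebpa read 7.02, 6.01 and 6.37 in WT experiment 2, against 7.11, 7.61 and 7.49 in WT experiment 1 (-0.93 ± 0.24, adjusted p = 0.0195), Csf3r differed by -0.62 ± 0.15, adjusted p = 0.0163 and Spi1 by -0.56 ± 0.16, adjusted p = 0.0299. Mpo differed by -0.35 ± 0.10, adjusted p = 0.0336, but its other detected probes differed by -0.19, 0.04 and 0.11, none called, and the call was lost on leaving out any array but WT experiment 2 replicate 1 (adjusted p up to 0.102). Elane, Prtn3, Ctsg, Irf8 and Csf1r differed by no more than 0.05 log2 units in either direction. The 4 lower calls fell to 1 without WT experiment 1 replicate 2, WT experiment 2 replicate 2 or WT experiment 2 replicate 3, and to 0 without WT experiment 1 replicate 3, and the 2 higher calls to 0 without WT experiment 1 replicate 1 or 3 or WT experiment 2 replicate 2 or 3. Csf3r also depended on the probe, since its other detected probes differed by 0.65 and -0.08.

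Of 35 detected erythroid genes 3 were higher (8.57%) and 7 lower (20%), against 12.8% and 12.2% of all genes, with a median of -0.08. Among the lower ones, Klf1 read 11.24, 11.03 and 11.23 in WT experiment 2, against 11.89, 11.70 and 11.97 in WT experiment 1 (-0.69 ± 0.12, adjusted p = 0.00379), Gata1 read 8.001, 7.91 and 7.95 in WT experiment 2, against 8.48, 8.49 and 8.68 in WT experiment 1 (-0.59 ± 0.11, adjusted p = 0.00482; -1.75 for its other detected probe), and Rhag, the Rhesus-associated glycoprotein, differed by -0.56 ± 0.12, adjusted p = 0.00974. The higher ones were Hbb-b1, Slc4a1 and Alas2: Hbb-b1 (beta globin) differed by 0.96 ± 0.24, adjusted p = 0.018, Slc4a1 (band 3) by 1.24 ± 0.31, adjusted p = 0.018 and Alas2 by 0.81 ± 0.25, adjusted p = 0.0405. Hbb-b1 was measured by 10 detected probes, all higher, by 0.19 to 1.02. The 7 lower genes became 4 without WT experiment 1 replicate 1, and the 3 higher became 0 without that array and 1 without WT experiment 2 replicate 2.

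Of 17 megakaryocyte genes 4 were lower (23.5%) and 1 higher (5.88%), against 12.2% and 12.8% of all genes, with a median difference of -0.34. Treml1, a platelet granule receptor, read 7.08, 7.64 and 7.32 in WT experiment 2, against 7.77, 8.36 and 8.24 in WT experiment 1 (-0.78 ± 0.19, adjusted p = 0.0157), and Vwf read 7.02, 7.12 and 7.33 in WT experiment 2, against 7.38, 7.75 and 7.76 in WT experiment 1 (-0.47 ± 0.14, adjusted p = 0.0368). Fli1, a transcription factor of this branch and of other blood cells, was higher at 0.89 ± 0.16, adjusted p = 0.0039. The lower count was 0 without WT experiment 1 replicate 2 or 3, 1 without WT experiment 2 replicate 1 or 2, and 2 without WT experiment 2 replicate 3.

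Of 35 stem cell genes 4 were higher (11.4%) and 6 lower (17.1%), against 12.8% and 12.2% of all genes, with a median of -0.14. Runx1, a master factor of definitive blood, read 7.83, 7.96 and 7.45 in WT experiment 2, against 5.86, 6.19 and 6.26 in WT experiment 1 (1.64 ± 0.16, adjusted p = 0.000168), while its other detected probe differed by 0.53 and was not called. Hoxa7 read 8.79, 8.92 and 8.73 in WT experiment 2, against 7.87, 7.93 and 7.84 in WT experiment 1 (0.93 ± 0.11, adjusted p = 0.000435). Hoxb4 and Hoxa5 differed by 1.31 ± 0.30, adjusted p = 0.0126 and 0.64 ± 0.16, adjusted p = 0.0189. In the other direction Tek, the angiopoietin receptor, read 5.99, 5.77 and 5.97 in WT experiment 2, against 6.57, 6.59 and 6.81 in WT experiment 1 (-0.75 ± 0.12, adjusted p = 0.0025), Prdm16, above background on 2 of 3 WT experiment 2 arrays, differed by -1.06 ± 0.29, adjusted p = 0.0267. Gfi1b differed by -0.66 ± 0.12, adjusted p = 0.00481, but its other detected probe ran the opposite way, by 0.16, and was not called. Ly6a, Slamf1 and Meis1 were not called, at -0.34 ± 0.25, -0.09 ± 0.15 and -0.15 ± 0.11. The 6 lower genes became 3 without WT experiment 1 replicate 3 or WT experiment 2 replicate 3.

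The IgE receptor chain Fcer1a read 7.31, 7.94 and 7.40 in WT experiment 2, against 6.42, 6.56 and 6.50 in WT experiment 1 (1.05 ± 0.16, adjusted p = 0.00213) and its second probe differed by 1.19, while Cpa3, Ms4a2 and Hdc were not called. Of 6 detected T and NK genes 3 were higher (50%) and 1 lower (16.7%), against 12.8% and 12.2% of all genes. Prf1 differed by 1.12 ± 0.14, adjusted p = 0.000652 and Thy1 by -0.76 ± 0.15, adjusted p = 0.00672. The 3 higher genes of that list became 1 without WT experiment 1 replicate 1 or WT experiment 2 replicate 2. In the stromal list Cxcl12, above background on 2 of 3 WT experiment 1 arrays, differed by 0.99 ± 0.25, adjusted p = 0.0179, lost without WT experiment 1 replicate 2 or WT experiment 2 replicate 2 (adjusted p up to 0.0616), and Eng by -0.62 ± 0.11, adjusted p = 0.0037. Of 14 B lymphoid genes 1 was called in each direction (7.14% each, against 12.8% and 12.2% of all genes). Ebf1 was at background on all WT experiment 1 arrays and at least 1.15-fold higher (adjusted p = 0.0352), and passed the detection rule through WT experiment 2 alone. Fcrla, above background on 1 of 3 WT experiment 2 arrays, differed by -0.78 ± 0.21, adjusted p = 0.0243. Ebf1 was not called without WT experiment 1 replicate 1, 2 or 3, and Fcrla not without WT experiment 1 replicate 3 or WT experiment 2 replicate 1 or 3.

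Among receptors 8 of 39 were higher (20.5%) and 5 lower (12.8%), against 12.8% and 12.2% of all genes. Cd44, the hyaluronan receptor, read 10.99, 10.46 and 10.42 in WT experiment 2, against 9.11, 9.12 and 8.98 in WT experiment 1 (1.56 ± 0.16, adjusted p = 0.000209), but its other detected probes differed by -0.77 and -0.58 and the call was lost when probes were averaged. Il6ra and its signalling partner Il6st were both higher, by 0.78 ± 0.22, adjusted p = 0.028 and 0.61 ± 0.15, adjusted p = 0.0164, and all 3 detected Il6ra probes ran the same way. Il18r1 differed by 0.83 ± 0.14, adjusted p = 0.0035 and Notch1 by 0.97 ± 0.19, adjusted p = 0.00546. Cxcr4 and Il27ra were lower, with differences of -0.51 ± 0.11, adjusted p = 0.00993 and -0.59 ± 0.11, adjusted p = 0.00531. Without WT experiment 1 replicate 2, WT experiment 1 replicate 3 or WT experiment 2 replicate 2, the 8 higher receptors became 5, and without WT experiment 1 replicate 3 or WT experiment 2 replicate 2 the 5 lower became 3.

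Of 65 interferon-stimulated genes 9 were higher (13.8%) and 5 lower (7.69%), against 12.8% and 12.2% of all genes, with a median of -0.06. Sp100, a nuclear body protein, read 7.49, 7.88 and 7.64 in WT experiment 2, against 6.75, 6.92 and 6.73 in WT experiment 1 (0.87 ± 0.13, adjusted p = 0.00179), and Ifi203 and Gbp7 differed by 0.72 ± 0.13, adjusted p = 0.00456 and 0.73 ± 0.14, adjusted p = 0.00509. The other detected probes of Sp100 (0.27 and 0.24) and of Ifi203 (0.39 and 0.40) were not called. Rsad2 differed by 0.72 ± 0.20, adjusted p = 0.0264 and Eif2ak2 (PKR) by 0.66 ± 0.13, adjusted p = 0.00627. Parp9 passed the detection rule through WT experiment 2 alone, so its place among the higher genes follows in part from that rule. On the lower side, Oas1g, an oligoadenylate synthetase, read 7.56, 7.999 and 7.79 in WT experiment 2, against 8.26, 8.87 and 8.90 in WT experiment 1 (-0.89 ± 0.19, adjusted p = 0.00888), and Oasl1, Irf7 and Ifi27 differed by -0.77 ± 0.19, adjusted p = 0.0185, -0.62 ± 0.14, adjusted p = 0.0124 and -0.62 ± 0.12, adjusted p = 0.0058. Irf7 was above background on 1 of 3 WT experiment 2 arrays, and the other Ifi27 probe, at -0.31, was not called. Isg15, Ifit2 and Usp18 were not called, at -0.57 ± 0.20, 0.21 ± 0.11 and -0.43 ± 0.16. The higher count became 5 without WT experiment 1 replicate 3 or WT experiment 2 replicate 2, and the lower count 3 without WT experiment 1 replicate 2. Of the interferon receptors and kinases, 1 of 8 was called, Ifnar2 at 0.46 ± 0.14, adjusted p = 0.0399. Its other detected probes differed by 0.31 and 0.01 and were not called, and the call was lost on leaving out any array but WT experiment 1 replicate 1 (adjusted p up to 0.133).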

How the data were processed

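The authors deposited bead intensity per probe and array (linear intensity, with a detection score per the file headers) and a log2 table of normalized values; per the labels and the submitters' processing notes, GenomeStudio and limma were used, without versions. The detection column rises with intensity, so the deposited score was read as 1 minus p. The deposited log2 values were used as given: neqc on the deposited intensity differed by at most 0.0197. The sources used here do not state the genome build of the probe positions. Of 45281 probes, 38837 were named through Entrez identifiers, 80 through accessions, 4551 by the file's symbol and 1813 by the target ID, in RefSeq's tables.

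A probe was kept with a score above 0.95 on at least 3 of the 6 wild-type arrays, and the brightest represented its gene. A probe at background throughout an experiment passed through the other experiment alone, so its direction follows in part from this rule. Such a probe dropped out when an array of that other experiment was left out, and another probe of its gene could take its place. WT experiment 2 minus WT experiment 1 was fitted with limma 3.58.1 in R 4.3.3 (4 residual degrees of freedom), with Benjamini-Hochberg adjustment over 10865 genes. Data were simulated for this comparison over 10865 genes, with 200 genes changed and noise independent between genes. In them 83% of changes of 1 log2 unit and 98% of changes of 2 log2 units were recovered, with 2.16% false calls. Shifts shared by many genes were not simulated, so 2.16% is not the false share of the calls reported here. A fold given as "at least" sets the brighter group's mean against the lowest level above background. Values after ± are SE for differences, with n = 3 arrays each, and the number of arrays limits the precision.

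Genes were named by rule: Kit and Ptprc, the 10 largest differences each way without overlap, up to 4 of the smallest p per list, cell type markers, the 10 brightest, the 10 most variable within experiments and the sex-linked genes. Other list members named were chosen after their values were seen, and all lists were chosen with earlier results of these data known. Alternatives covered normalization, filters, probe choice, array weights, a replicate block, the arrays in the fit and each array left out. The replicate numbers do not pair the samples. No batch could be separated from the experiments. A few named genes are left unreported here.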

Additional observations from a re-analysis of the deposited data

How the results depend on the processing

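Against 2710 calls (1386 higher, 1324 lower), median-centred arrays gave 1509 (908 higher, 601 lower), and all 12 arrays in the fit gave 856 (527 higher, 329 lower), all 856 among the 2710. Leaving out 1 array gave 1709 to 2486 calls, 907 to 1195 of them higher and 729 to 1291 lower. The share of calls that were higher was 51.1%, and 60.2% with median-centred arrays. With the replicate number as a block 2260 genes were called (1183 higher, 1077 lower); same-numbered arrays correlated at -0.12, -0.17 and -0.15 in their deviations from the group means, so the pairing rests on a number alone. Alternatives added after seeing the data gave 2090 calls with the Xist level as a covariate (1106 higher, 984 lower) and 2362 in a fit of 11 arrays without Bak/Bax DKO replicate 2. The Spearman correlation of mean percentiles was 0.972 with detected probes averaged, against 0.976, and the same-sign share in the knockout arrays was 82.4% without Bak/Bax DKO replicate 2, against 79.6%. IGK-V5 differed by -1.04 without WT experiment 1 replicate 1 (adjusted p = 0.0288 in limma) and by up to 0.62 with another array left out, against 0.03; the low value of WT experiment 1 was on replicate 1 alone. The cause of the other changes was not tested. Of 71 named genes called, 27 were called under every alternative that tested them. Probes near background and those near the ceiling of the scale limit what differences could be measured.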
